A study of Mus musculus with 4 samples.

Results

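Fatty acid synthesis and desaturation were followed through 10 genes, Acly, Acaca, Fasn, Elovl6, Elovl5, Scd1, Scd2, Fads1, Fads2 and Fads3, on 4 arrays of mouse blastocyst-derived outgrowths. Each gene was read from the row whose platform annotation held only its symbol, taking the row with the highest mean where there were several. A row was found for 9 of the 10, among 30142 genes in all. Scd2 had no row of its own, because its row is also annotated to a microRNA, and it was not analysed here. The genes were chosen by name, with the difference between genotypes on these same arrays already known. Their genotype differences are therefore given as a description, with no test.

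The 2 groups were outgrowths of Tip110-/- blastocysts and outgrowths of wild-type blastocysts, all from crosses between Tip110+/- parents. Blastocysts taken at 3.5 days post coitum were each kept in a separate well, untreated, for 4 to 6 days in a serum replacement medium used for embryonic stem cells. Embryos from natural matings and from superovulated females both entered the study, and genotype was read from cDNA. Both genotypes have an array of 3 pooled outgrowths (replicate 1) and an array of 1 outgrowth (replicate 2), and a pool hides the spread between its embryos. An outgrowth is a mixture: trophoblast cells surround cells descended from the inner cell mass. RNA collected per outgrowth came to 55.0 pg in the Tip110-/- pool and 144 pg in the Tip110-/- single outgrowth, against 249 and 178 pg in wild-type. The sample labels give 144 pg as the amount used per array, and the design text gives a smaller amount. Values are log2 signals as deposited. Levels are not compared between one gene and another, though a few are set against the background rows or the median of all genes.

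Cells build fatty acids from citrate. ATP-citrate lyase (Acly) splits it to acetyl-CoA, acetyl-CoA carboxylase (Acaca) makes malonyl-CoA, and fatty acid synthase (Fasn) joins these units into palmitate. Elovl6 lengthens palmitate and the Scd enzymes place a double bond in the product, giving monounsaturated fats. Linoleic and linolenic acids cannot be built from acetyl-CoA in mammals. Taken from the diet, they are processed by Fads2, Elovl5 and Fads1 in turn into arachidonic and related polyunsaturated acids of membranes. The SREBP transcription factors are known activators of many of these genes, and mice that lack Acly, Acaca or Fasn die as embryos.

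The widest gaps between genotypes were in the polyunsaturated desaturases Fads2 and Fads1 and in Fasn, with Acly and Elovl6 next. Signals of these 5 genes were lower on both Tip110-/- arrays than on both wild-type arrays. Their mean signals were lower by 2.80-fold (Acly, Elovl6) to 57.0-fold (Fads2). The groups of Elovl6 were only 0.29 apart, less than the SDs of 1.06 and 0.63 within them. A dimmer row of Fads2 gave a smaller difference, -2.94 in log2. Acaca and Scd1 lay slightly below wild-type, and Fads3 and Elovl5 overlapped between the groups. In a bulk outgrowth, fewer cells of a kind and less RNA per cell cannot be told apart.

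Acly, which supplies cytosolic acetyl-CoA, read 9.32 in the Tip110-/- pool and 9.33 in the Tip110-/- single outgrowth, against 10.66 and 10.96 in the wild-type pool and single outgrowth. Both Tip110-/- values lay below both wild-type values, and the Tip110-/- arrays were nearly equal. The difference was -1.49 ± 0.51 (SE), a 2.80-fold lower mean signal. Acaca, which makes malonyl-CoA, read 5.18 and 5.41 on Tip110-/- arrays, against 5.51 and 5.76 on wild-type arrays. The groups were separated by a gap of 0.10, smaller than the 0.16 and 0.18 SD within them, and the difference was -0.34 ± 0.27. Fasn, the enzyme that assembles palmitate, read 7.63 and 8.78 on Tip110-/- arrays, against 11.55 and 12.08 on wild-type arrays. The lower wild-type array was 2.76 above the higher Tip110-/- array. Means were 8.21 ± 0.81 in Tip110-/- and 11.81 ± 0.38 in wild-type (SD, n = 2 each), a difference of -3.61 ± 0.64 (SE), or 12.2-fold lower.

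Elovl6, which extends palmitate to stearate, read 8.76 in the Tip110-/- pool and 10.26 in the Tip110-/- single outgrowth, against 11.44 and 10.55 in wild-type. The single outgrowths differed by only -0.29 and the pools by -2.68, so most of the mean difference of -1.48 ± 0.74 came from the pools. Without the Tip110-/- pool it was -0.73. Scd1, a desaturase that makes oleate and palmitoleate, read 10.87 and 11.49 on Tip110-/- arrays, against 11.74 and 11.62 on wild-type arrays. The groups were 0.13 apart, less than the SD of 0.43 between the Tip110-/- arrays, and the difference was -0.50 ± 0.51. It was -0.19 without the Tip110-/- pool and -0.81 without the Tip110-/- single outgrowth. A dimmer row of Scd1 read 5.99 and 6.79 on Tip110-/- arrays, against 6.40 and 6.27 on wild-type arrays, and its groups overlapped.

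**Figure D1:**
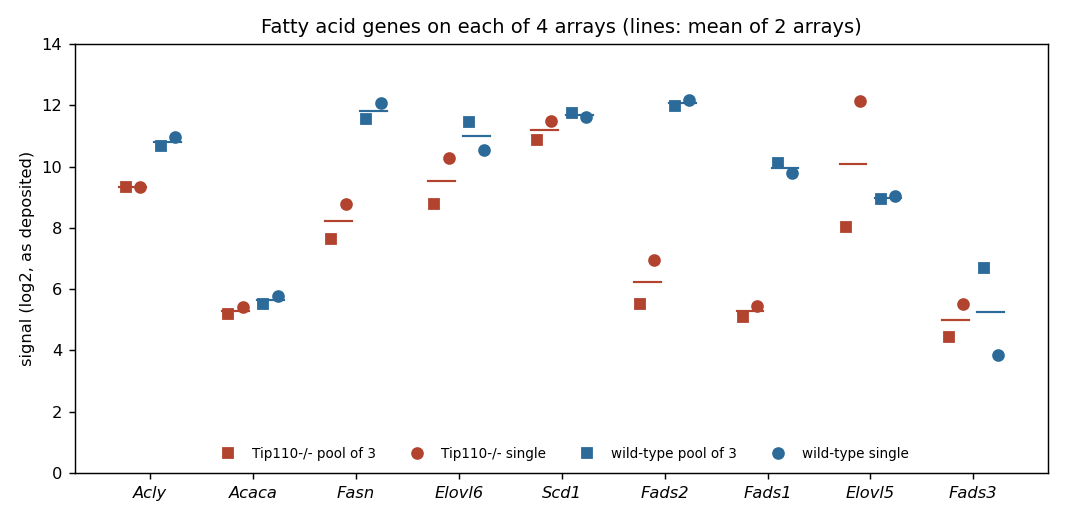
Signal (log2, vertical axis) of 9 fatty acid genes on 4 arrays, red for Tip110-/- and blue for wild-type, squares for the pools of 3 outgrowths and circles for single outgrowths, with lines at the mean of 2 arrays. Fads2, Fads1 and Fasn show the widest gaps, and the Tip110-/- single outgrowth stands alone at 12.13 in Elovl5.

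Fads2, the desaturase that opens the polyunsaturated pathway, read 5.50 in the Tip110-/- pool and 6.96 in the Tip110-/- single outgrowth, against 11.98 and 12.16 in wild-type. Both Tip110-/- arrays were far below both wild-type arrays, with a gap of 5.02 between the groups. Means were 6.23 ± 1.03 in Tip110-/- and 12.07 ± 0.13 in wild-type (SD, n = 2 each). The difference was -5.83 ± 0.68 (SE), which is 57.0-fold, place 12 from the most negative among all genes and place 8 among the protein coding ones. A dimmer row annotated to Fads2 read 4.90 and 7.12 on Tip110-/- arrays, against 7.27 and 10.62 on wild-type arrays. Its groups were also separate, but its difference was -2.94, so the size depends on the row. Fads1, which acts later in the same pathway and yields arachidonic acid, read 5.10 and 5.45 on Tip110-/- arrays, against 10.11 and 9.79 on wild-type arrays. Pool minus single outgrowth was -0.36 in Tip110-/- and 0.32 in wild-type, while the means of 5.27 ± 0.25 and 9.95 ± 0.23 (SD, n = 2 each) were -4.67 ± 0.45 (SE) apart. That is 25.5-fold lower in Tip110-/-, at place 33 among all genes.

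Elovl5, the elongase that works between Fads2 and Fads1, did not share this pattern. It read 8.02 in the Tip110-/- pool and 12.13 in the Tip110-/- single outgrowth, against 8.95 and 9.03 in wild-type. One Tip110-/- array was the highest of the 4 and the other the lowest, so the mean difference of 1.09 ± 1.39 describes neither, and it was -0.96 without the single outgrowth. Fads3, a relative linked to sphingolipid desaturation, read 4.44 and 5.52 on Tip110-/- arrays, against 6.69 and 3.84 on wild-type arrays. The wild-type arrays enclosed both Tip110-/- values, and the difference of -0.28 ± 0.98 changed sign without the Tip110-/- pool (0.26) or the wild-type pool (1.14).

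Among the 9 genes, 7 had both Tip110-/- arrays below both wild-type arrays, 2 overlapped and 0 lay above. Over all genes the same shares were 12.9% below and 39.9% above. A difference of at least 2-fold was present in 5 of the 9 toward lower signal and in 1, Elovl5, toward higher signal, against 5.56% and 4.53% of all genes. The median difference of the 9 was -1.48, or -1.63 relative to the median of all genes, which was 0.15. Since the genes were picked with these differences in view, nothing is read from the contrast with the background.

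The arrays differed as wholes in ways that touch these values. The median of the 1324 rows taken as exon controls of widely expressed genes was 8.69 in the Tip110-/- pool and 9.51 in the Tip110-/- single outgrowth, against 9.80 and 9.66 in wild-type. That of the 23 antigenomic background rows ran the other way, at 3.05 and 2.94 on Tip110-/- arrays, against 2.83 and 2.82 on wild-type arrays. Differences that end near this level may understate the change, which was not tested. Centring each array on the exon controls, a scaling chosen after seeing the data, left Fads2 at -5.20, Fads1 at -4.04, Fasn at -2.98, Acly at -0.86 and Elovl6 at -0.85, with both Tip110-/- arrays still below both wild-type arrays in all 5. On that scale the median difference of all genes was 0.78. It turned Scd1 to 0.13, Acaca to 0.29 and Fads3 to 0.35. Scd1 and Acaca then no longer had both Tip110-/- arrays below both wild-type arrays. Centring on the gene median and quantile normalization turned the sign of none of the 9. The part of array quality in these differences was not tested.

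**Figure D2:**
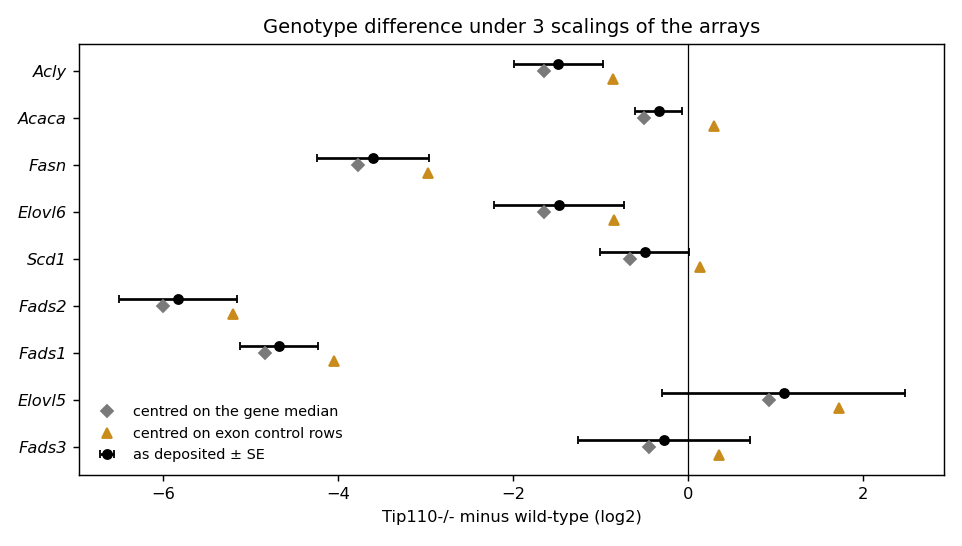
Difference of Tip110-/- minus wild-type (log2, horizontal axis) for each gene, as deposited with the SE of the fit (black), centred on the gene median (grey) and centred on the exon control rows (orange). Fads2, Fads1, Fasn, Acly and Elovl6 stay below 0 under these 3 scalings, while Scd1, Acaca and Fads3 cross it under exon control centring.

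Size of sample could be examined independently of the choice of genes, since pools and single outgrowths occur in both genotypes. With genotype as a term, none of the 9 genes passed limma's moderated test of pools minus single outgrowths after Benjamini-Hochberg adjustment over all genes (adjusted p = 1.0 for each). Elovl5, at -2.09 ± 1.10, and Fads3, at 0.88 ± 0.91, had the largest values. Both are averages of unlike genotypes: pool minus single outgrowth was -4.11 in Tip110-/- and -0.08 in wild-type for Elovl5. For Fads3 it was -1.08 and 2.85. Over all genes 0% passed the adjusted threshold and 3.27% had an unadjusted p under 0.05. As no gene passed, the test cannot show that the 9 genes lack a difference between pools and single outgrowths. Within Tip110-/- the pool read lower than the single outgrowth in all 9 genes, at a median of -1.08, where 41.5% of all genes did so. The exon control median was also lower in that pool, at 8.69 against 9.51. Acly (-0.01), Acaca (-0.23), Fads1 (-0.36) and Scd1 (-0.61) fell by less than these controls, so the count of 9 depends on scaling. The part of array quality in the order of the 9 genes was not tested. Within wild-type the pool was lower in 5 of the 9, against 51.2% of all genes. Between genotypes, the median difference of the 9 was -2.24 for the pools and -0.35 for the single outgrowths, against 0.16 and 0.11 over all genes. The sign differed between pools and single outgrowths in Elovl5 and Fads3, as in 35.0% of all genes.

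Fads3, Fads2 and Fads1 stand next to each other on chromosome 19 in the mouse assembly GRCm38.p6, which allowed the surrounding genes to be read as a local comparison. Of the 4 protein coding genes on either side, 1 of 8 had both Tip110-/- arrays below wild-type, 2 had both above and 5 overlapped, where 12.9% of all genes lay below and 39.9% above. Their differences ran from -0.58 (Dagla) to 0.80 (Fth1). Fen1, a flap endonuclease gene that follows Fads1, read 6.79 and 8.16 on Tip110-/- arrays, against 6.96 and 6.86 on wild-type arrays. Rab3il1, which precedes Fads3, read 8.44 and 8.62 on Tip110-/- arrays, against 8.30 and 8.13 on wild-type arrays. Myrf, a membrane-bound transcription factor gene, was the only one of the 8 at an unadjusted p under 0.05 (limma), a mark that 12.7% of all genes reached, with 4.51 and 4.55 on Tip110-/- arrays, against 4.98 and 5.19 on wild-type arrays. The low Tip110-/- signal of Fads2 and Fads1 thus had no counterpart of its size in these 8 genes. They were chosen by position after the values of the Fads genes were known.

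**Figure D3:**
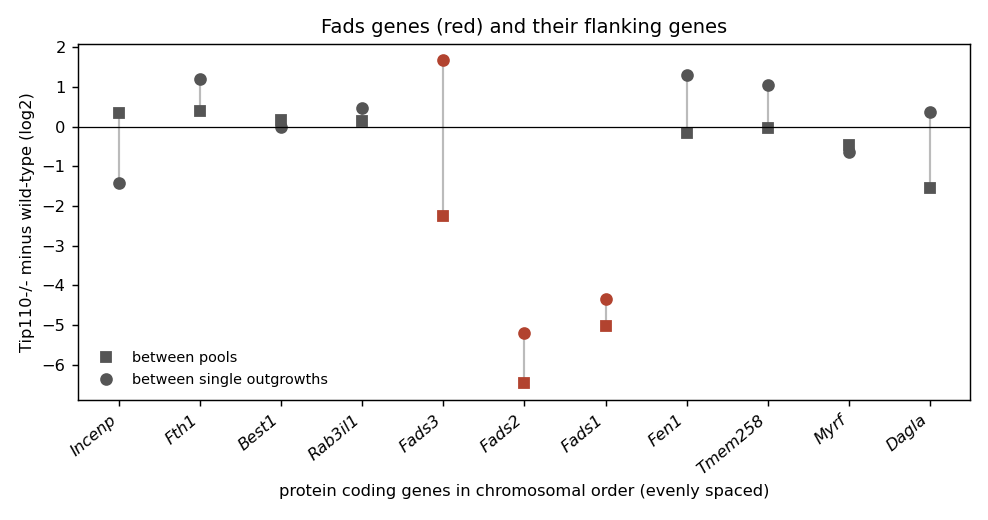
Tip110-/- minus wild-type (log2, vertical axis) between the pools (squares) and between the single outgrowths (circles), for protein coding genes in chromosomal order. Fads2 and Fads1 (red) lie below -4 in both comparisons, Fads3 (red) lies at -2.24 and 1.68, and the flanking genes (grey) scatter around 0, the widest being Dagla at -1.54 between the pools.

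Promoters of 7 of the 10 genes were in the RefSeq table of assembly GRCm38.p6, as the 250 bases before and 50 bases after the start. Those of Fads1, Scd1 and Scd2 were not used here. The promoters of Fads2, Fasn and Acly are shown because these genes had 3 of the wider gaps and act at separate steps of the pathway. Fads2 lies at chr19:10101454-10101753, Fasn at chr11:120824498-120824797 and Acly at chr11:100527951-100528250, all on the minus strand. Capitals mark matches, on either strand, to 4 motifs: the sterol regulatory element bound by SREBP (TCACNCCAC), the NF-Y box (CCAAT), the Sp1 box (GGGCGG) and the E-box (CACGTG).
Fads2: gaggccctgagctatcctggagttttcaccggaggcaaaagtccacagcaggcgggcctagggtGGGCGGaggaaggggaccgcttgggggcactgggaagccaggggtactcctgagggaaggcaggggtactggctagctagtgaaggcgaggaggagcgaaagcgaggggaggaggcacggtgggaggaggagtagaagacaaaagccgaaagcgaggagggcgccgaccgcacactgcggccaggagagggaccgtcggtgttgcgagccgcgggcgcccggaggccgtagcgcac
Fasn: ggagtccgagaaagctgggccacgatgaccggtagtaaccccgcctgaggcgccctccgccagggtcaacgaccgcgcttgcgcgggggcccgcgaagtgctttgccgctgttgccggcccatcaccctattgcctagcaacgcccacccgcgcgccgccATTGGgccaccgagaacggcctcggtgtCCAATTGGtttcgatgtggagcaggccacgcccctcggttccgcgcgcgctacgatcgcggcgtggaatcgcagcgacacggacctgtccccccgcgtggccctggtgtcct
Acly: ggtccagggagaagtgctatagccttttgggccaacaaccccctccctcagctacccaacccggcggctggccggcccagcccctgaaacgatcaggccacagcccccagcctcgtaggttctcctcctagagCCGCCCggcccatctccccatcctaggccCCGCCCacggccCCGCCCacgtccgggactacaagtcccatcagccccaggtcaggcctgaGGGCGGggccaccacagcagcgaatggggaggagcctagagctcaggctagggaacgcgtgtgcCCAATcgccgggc
The sterol regulatory element as spelled was in 0 of the 7 promoters, where 1.24% of 32544 mouse promoters hold it. The NF-Y box was in 4 of the 7, Fasn with 3 matches, Elovl5 and Fads3 with 2 each and Acly with 1, against 37.4% of all promoters. In Fasn 2 of the 3 overlap on opposite strands. The Sp1 box was in 3, Acly with 4 matches, Fads3 with 2 and Fads2 with 1, against 35.9%. The E-box was in 1, Elovl5, against 7.17%. Elovl6 and Acaca held none of the 4. Whether the start behind each entry, that of Acaca among them, is the one used in these outgrowths was not tested. No motif was shared by Fads2 and Fasn, and a match is a description of letters only.

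Around these genes, 7 lists of other lipid genes were read, with 154 entries of which 140 had a row. Over all genes limma called 0 (0%) after Benjamini-Hochberg adjustment, with a smallest adjusted p of 0.154. An unadjusted p under 0.05 was reached by 3.67% of genes toward lower and 8.99% toward higher signal, and 3.00% and 1.53% also differed at least 2-fold. That split depends on scaling: 1106 genes were lower and 2711 higher as deposited, 1825 and 911 after centring on the gene median, 1656 and 1071 after quantile normalization, and 506 and 2415 after exon control centring. Of the 140 lipid genes, 13 were lower and 6 higher at that unadjusted mark and 121 did not reach it. The median difference of the 140 was 0.00, against 0.15 over all genes. Without the Tip110-/- single outgrowth the counts were 8 lower and 10 higher, without the wild-type single outgrowth 2 were higher, and with exon control centring 5 were lower. Those named as lower or higher had limma adjusted p between 0.284 and 0.386.

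Partners of the elongases were among them. Of 18 relatives of the desaturases and elongases, 3 were lower and 0 higher, against 3.67% and 8.99% of all genes. The list median was 0.03. Tecr, the reductase that completes each round of elongation, read 10.87 and 11.05 on Tip110-/- arrays, against 13.43 and 13.48 on wild-type arrays, a difference of -2.50 ± 0.44 (SE). The dehydratases of the same cycle, Hacd3 and Hacd2, differed by -1.62 ± 0.34 and -1.39 ± 0.45. Scd3 and Scd4, close relatives of Scd1 on the same chromosome, differed by -0.01 and -0.12, and the remaining Elovl genes lay between -0.13 (Elovl1) and 1.26 (Elovl7).

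In the supply of acetyl-CoA, malonyl-CoA and NADPH, 2 of 17 genes were lower and 0 higher, against 3.67% and 8.99% of all genes. Slc25a1, the mitochondrial carrier that exports the citrate used by Acly, read 5.97 and 6.56 on Tip110-/- arrays, against 9.15 and 9.15 on wild-type arrays. Every Tip110-/- value was more than 2 log2 units below every wild-type value, and the difference was -2.88 ± 0.46. Mcat, of mitochondrial fatty acid synthesis, differed by -1.99 ± 0.42. Acacb, the second acetyl-CoA carboxylase gene, differed by 0.10 and Me1, a cytosolic source of NADPH, by 0.74 ± 0.55.

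Among 16 control genes of the SREBP, LXR and lipid sensing pathways, 0 were lower and 1 higher at the unadjusted mark. The same shares over all genes were 3.67% and 8.99%. The higher one was Insig2, which retains SREBP precursors in the endoplasmic reticulum, with 8.09 and 8.002 on Tip110-/- arrays, against 7.01 and 5.70 on wild-type arrays. Srebf2, which encodes an SREBP, averaged 6.87 ± 0.19 on Tip110-/- arrays and 8.46 ± 1.29 on wild-type arrays (SD, n = 2 each). Its escort Scap read 7.53 and 7.12 on Tip110-/- arrays, against 9.11 and 8.19 on wild-type arrays. In both genes the groups were separate, but the wild-type arrays themselves differed widely, and neither reached the unadjusted mark (-1.59 ± 0.72 and -1.32 ± 0.55). Insig1, a known SREBP target, differed by -0.46 ± 0.47, and the lipogenic regulators Nr1h3 and Mlxipl by 0.27 and 0.14. Srebf1 and Nr1h2 had no row of their own and were not analysed here.

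**Figure D4:**
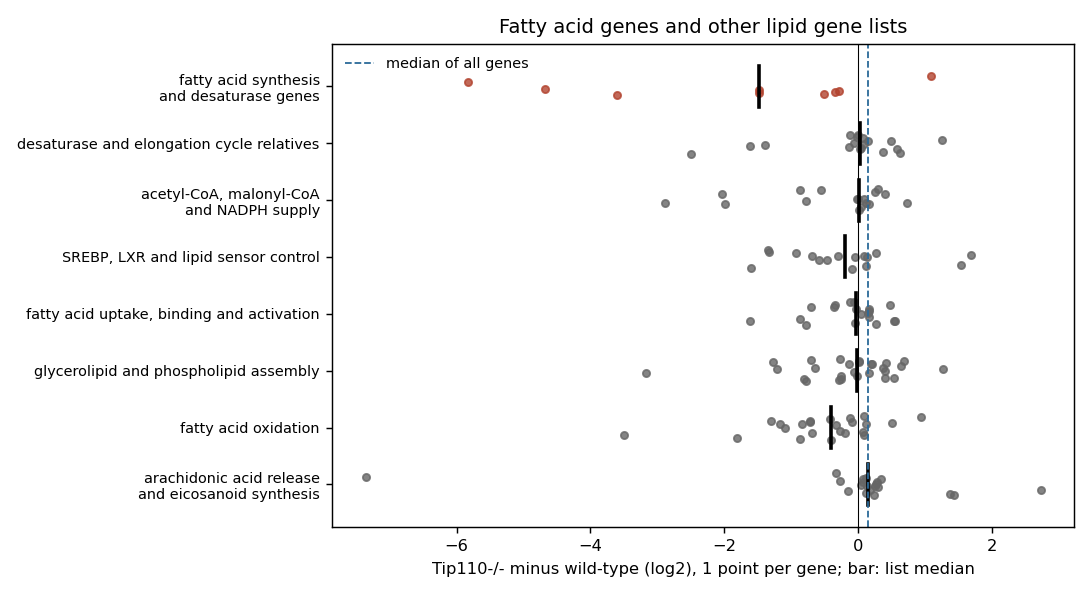
Tip110-/- minus wild-type (log2, horizontal axis), 1 point per gene, for the 9 fatty acid genes (red) and 7 other lipid lists (grey), with a black bar at each list median and a dashed line at the median of all genes, 0.15. The bar of the fatty acid genes lies at -1.48 and those of the other lists between -0.40 and 0.16.

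Fatty acid oxidation, the opposing pathway, had 3 genes lower and 1 higher of 23, against 3.67% and 8.99% of all genes. Its list median of -0.40 turned to 0.23 under exon control centring. Eci1, an isomerase needed to oxidise unsaturated fatty acids, read 5.40 and 5.19 on Tip110-/- arrays, against 8.67 and 8.92 on wild-type arrays, a difference of -3.50 ± 0.39. Acaa1a, a peroxisomal thiolase, differed by -0.84 and the hydratase Echs1 by -1.17, while Pdk4 differed by 0.52 at signals near background. Cpt1a, the entry enzyme of the pathway, differed by -0.40 ± 0.64.

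Uptake and binding had 1 lower and 1 higher of 19, against 3.67% and 8.99% of all genes. Slc27a2, an acyl-CoA synthetase that also takes up fatty acids, differed by -0.70 and the carrier Fabp4 by 0.55, both at low signal. Glycerolipid and phospholipid assembly had 3 lower and 1 higher of 27, against the same shares of all genes. Plin3, a lipid droplet coat protein, read 6.92 and 4.93 on Tip110-/- arrays, against 9.66 and 8.53 on wild-type arrays, at -3.17 ± 0.83. The acyltransferase Lpcat1 differed by -1.21, the phosphatidylserine synthase Ptdss2 by -0.80 and the phosphatidate phosphatase Lpin2 by 0.65.

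Downstream of Fads1, 1 of 20 genes of arachidonic acid release and eicosanoid synthesis was lower and 2 were higher. Over all genes 3.67% were lower and 8.99% higher. Pla2g1b, a secreted phospholipase, read 4.04 and 4.33 on Tip110-/- arrays, against 12.74 and 10.34 on wild-type arrays. Its Tip110-/- signal lay near the median of all genes, and the difference was -7.35 ± 0.88. Hpgd, which inactivates prostaglandins, read 9.72 and 11.67 on Tip110-/- arrays, against 7.84 and 8.08 on wild-type arrays, at 2.74 ± 0.79. Pla2g2a differed by 0.28 at a level near background.

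The profile of Fads2 over the 4 arrays was set against every other protein coding gene, each centred on its own mean. The 5 nearest by root mean square distance were Dse (0.55), Cyct (0.60), Cyp2b23 (0.62), Gm7995 (0.67) and Fads1 (0.72), in log2 units. Dse, a dermatan sulfate epimerase gene, read 3.67 and 3.64 on Tip110-/- arrays, against 9.56 and 9.97 on wild-type arrays. Cyct, the testis cytochrome c gene, read 3.92 and 3.82 on Tip110-/- arrays, against 9.14 and 9.30 on wild-type arrays. Fasn came in place 15 at 1.13, Elovl6 in place 486 and Elovl5 in place 18500. With 4 arrays, this likeness mostly restates the genotype difference.

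Markers of the cell types that an outgrowth can hold were read on the same arrays. Of 12 epiblast markers, 11 had both Tip110-/- arrays below both wild-type arrays, against 12.9% of all genes, and the list's mean signal was 7.92 in the Tip110-/- pool and 6.70 in the Tip110-/- single outgrowth, against 10.17 and 10.35 in wild-type. Pou5f1 read 7.75 and 5.52 on Tip110-/- arrays, against 10.04 and 10.06 on wild-type arrays. Sox2 differed by -4.34 ± 0.85 and Nanog by -7.25 ± 2.01. The Tip110-/- arrays of Nanog were far apart, at 10.10 in the pool and 4.15 in the single outgrowth. Its difference was -3.46 between the pools and -11.04 between the single outgrowths. Within Tip110-/-, 8 of the 12 epiblast markers were lower in the single outgrowth than in the pool. The other 4 (Esrrb, Klf4, Zfp42 and Utf1) were lower in the pool, as were all 9 fatty acid genes and 41.5% of all genes. The exon control median was also lower in that pool, at 8.69 against 9.51 in the Tip110-/- single outgrowth. These counts are as deposited and depend on scaling, and the part of array quality in them was not tested. The 11 measured trophoblast markers had 0 below and 3 above (Eomes, Tfap2c and Krt8), a share under the 39.9% of all genes above. Their differences were all positive, from 0.07 to 1.03, with a median of 0.60 against 0.15 over all genes. The list's means were 10.27 and 10.53 on Tip110-/- arrays, against 9.95 and 9.79 on wild-type arrays. The progenitor factor Cdx2 overlapped, with 6.10 and 4.77 on Tip110-/- arrays, against 4.66 and 4.97 on wild-type arrays. The 11 primitive endoderm markers had 0 below and 2 above, also under 39.9%. Their means were 5.04 and 5.37 on Tip110-/- arrays, against 5.56 and 4.45 on wild-type arrays. Gata6, a defining factor of that lineage, read 3.85 and 5.69 on Tip110-/- arrays, against 3.96 and 3.60 on wild-type arrays. The 8 fibroblast markers had 0 below and 5 above, against the same 39.9%, with means of 4.00 and 3.80 on Tip110-/- arrays, against 3.66 and 3.72 on wild-type arrays, below the median of all genes on each array. Sart3, the gene that encodes Tip110, read 4.28 and 4.54 on Tip110-/- arrays, against 4.94 and 5.98 on wild-type arrays, and the labels do not say whether its probes lie in the altered part. The part of cell mixture in the fatty acid gene differences was not tested.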

How the data were processed

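RNA was measured on 4 Affymetrix mouse whole-transcript arrays. The deposited table holds log2 signals for 72688 rows; the log base was inferred from the values. The submitters' processing notes name Affymetrix Expression Console with Transcriptome Analysis Console and give no role for either. Which normalization was run, and on which genome build the array was annotated, is not given in the sources used here. The platform annotation puts exactly 1 symbol on 30604 of the 65956 transcript clusters, several on 2146 and no symbol on 33206. Symbols were updated by Entrez ID in 22818 rows, and 30142 genes were kept, 1 row each by highest mean. A total of 6732 control rows stayed out of the tests.

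Tests used limma 3.58.1 in R 4.3.3 (lmFit, eBayes with an intensity trend), two-sided, with Benjamini-Hochberg adjustment over 30142 genes at 0.05 and no filter on level. SE values come from this fit. The scripts were tested on simulated data. The members and gene lists were chosen with earlier results of these data known. The genes named are the 9 members with a row, Sart3, fixed regulators and cell type references, up to 4 genes per lipid list with the smallest unadjusted p under 0.05, and the 5 profiles nearest to Fads2; other named genes were chosen after their values were seen. Alternatives were other scalings, a filter, no trend, a replicate block, other rows and each array left out. With 2 arrays per group, each SD rests on 2 values, and the number of arrays limits the precision. The labels call the replicates biological; that same-numbered arrays share a litter or day is not stated, and the correlation of their deviations from the group means over genes was -0.09. Joins ran in Python 3.11.15 (pandas 2.3.3, with matplotlib 3.10.9 for the plots).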

Additional observations from a re-analysis of the deposited data

Results flagged for a closer look

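Elovl5 differed between Tip110-/- and wild-type by -0.92 in the pools and by 3.10 in the single outgrowths. Fads3 differed by -2.24 in the pools and by 1.68 in the single outgrowths. Cdx2 differed by 1.44 in the pools and by -0.20 in the single outgrowths, and Gata6 by -0.12 and 2.09. These 4 genes are listed because the sign of the genotype difference is opposite in the 2 kinds of sample. Each comparison rests on 1 array per genotype, so whether the genotype difference itself differs between pools and single outgrowths was not tested. The test of pools minus single outgrowths averaged over genotypes is a separate one. Opposite signs, of any size, occurred in 35.0% of all genes, so a change of sign alone does not set the 4 apart. How many genes change sign by as much was not counted.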

How the results depend on the processing

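Across 12 alternatives, the differences of Fads2 (-6.56 to -2.94), Fads1 (-4.85 to -4.04), Fasn (-4.18 to -2.98), Elovl6 (-2.23 to -0.73) and Acly (-1.65 to -0.86) kept their sign. The low end for Fads2 comes from its dimmer row. Leaving out 1 array at a time, the median difference of the 9 genes ran from -1.70 to -0.73 (without the Tip110-/- pool), and 4 to 6 of them were at least 2-fold lower. Genes at an unadjusted p under 0.05 and at least 2-fold numbered 723 to 1159 lower and 381 to 883 higher, against 905 and 460 with all arrays, and lipid list genes at that p numbered 8 to 13 lower and 2 to 10 higher. Centring on the exon controls, added after seeing the data, gave 680 genes past the adjusted threshold (202 lower, 478 higher), 506 lower and 2384 higher at least 2-fold, 5 lipid list genes lower, 3 of the 9 genes at least 2-fold lower and a median of -0.85. It turned Scd1 to 0.13, Acaca to 0.29 and the oxidation list to 0.23, and the other row of Scd1 gave 0.0574. It moves the median difference of all genes to 0.78, and the cause of the change in calls was not tested. Centring on the gene median gave 258 genes higher at least 2-fold and a median over all genes of -0.017, quantile normalization one of -0.0111, and genes above the median row gave 3 lipid list genes higher. With a replicate block, which separates pools from single outgrowths, 0 genes passed the adjusted threshold, 939 were lower and 503 higher at least 2-fold, and lipid list genes at that unadjusted p numbered 11 lower and 5 higher, against 13 and 6 without it. Pools minus single outgrowths gave 0 genes past the adjusted threshold in all 6 alternatives run; leaving out an array leaves that contrast no residual freedom and was not run. Signals near the background rows limit how large a difference toward lower signal can be read.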
